A study of Mus musculus with 2 samples.

Results

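The semaphorins, plexins and neuropilins were described in the forebrain of newborn mice, by cell class and by genotype. Members were all rows whose symbol is Sema followed by a digit, Plxn followed by a, b, c or d and a digit, or Nrp1 or Nrp2. This gave 34 of the 28001 rows of both deposited matrices, of which 31 are protein-coding, namely 20 semaphorins, 9 plexins and 2 neuropilins, and 3 are antisense RNAs of the Plxna4 locus. The antisense rows are described apart and enter no count or median.

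The study pooled dissected lateral and dorsal cortex with hippocampus, from both hemispheres, at P0. One 10x Genomics 3′ v3.1 library held cells of 4 Gmnc-/- animals from 2 litters, and the other held cells of 4 wild-type littermates, all of the C57BL/6J strain. Gmnc encodes a nuclear regulator of the multiciliated cell programme, and the series sets P73+ Cajal-Retzius cells, early-born neurons of the cortical surface, against Reelin, the glycoprotein they secrete. With 1 library per genotype there was no replicate check. No test between genotypes could be made, and each interval given is an exact 95% interval that covers counting error only.

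Semaphorins are a family of secreted and membrane-bound guidance proteins that share the sema domain. Plexins are their receptors, and carry a GTPase-activating domain inside the cell that acts on small GTPases and the cytoskeleton. Secreted class 3 semaphorins mostly need a neuropilin, Nrp1 or Nrp2, as the ligand-binding partner of a plexin-A, whereas Sema3e binds Plxnd1 directly. Transmembrane semaphorins bind plexins without a neuropilin, among them Sema4d with Plxnb1, Sema6a with Plxna2 and Plxna4, and Sema6d with Plxna1. The lipid-anchored Sema7a binds Plxnc1 and an integrin. In the developing cortex these proteins are known for steering axons and migrating neurons and for shaping dendrites.

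After filters and the removal of called doublets, 20836 cells of the Gmnc-/- library and 10478 of the wild-type library were kept. Median depth was 4466.5 UMIs per cell in the Gmnc-/- library and 5994.5 in the wild-type library. Median mitochondrial share was 1.18% and 3.07%, in the same order, and Malat1, a nuclear RNA, stood at 18110 CPM in Gmnc-/- cells against 14816 CPM in wild-type cells. Doublets were called in 20.4% of the filtered Gmnc-/- cells and in 4.21% of the wild-type cells. The libraries shared 53 barcodes among the kept cells. Gmnc itself had 85 UMIs in Gmnc-/- cells and 64 in wild-type cells, so its 3′ tags do not check the labels. Trp73, the gene of P73, had 15 UMIs in Gmnc-/- cells against 434 in wild-type cells.

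Cells were clustered without the members, so that levels by class are not what defined the classes. Classes are called "-like" because their names come from marker genes and not from an annotation of the authors. Every marker of the 6 neural classes had UMIs in its class in both libraries, and each marker list summed higher in its own class than in all other cells. These classes were excitatory neuron-like cells (5718 in Gmnc-/-, 2471 in wild-type), intermediate progenitor-like (1411 and 614), interneuron-like (5022 and 2384), striatal-like (1554 and 735), astroglia-like (3963 and 1935) and oligodendrocyte lineage-like (1270 and 563). Endothelial-like, meningeal fibroblast-like, microglia-like and macrophage-like cells numbered 142 to 260 per library. Erythroid-like cells (597 and 319), which should hold none of these transcripts of their own, served as the measure of free RNA. The level of a gene is its CPM, the summed UMIs of the class scaled to a common total. It is a count of 3′ tags and was not scaled by transcript length. Whether intronic reads were counted is not known, and the part of gene length in the levels was not tested.

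**Figure D1:**
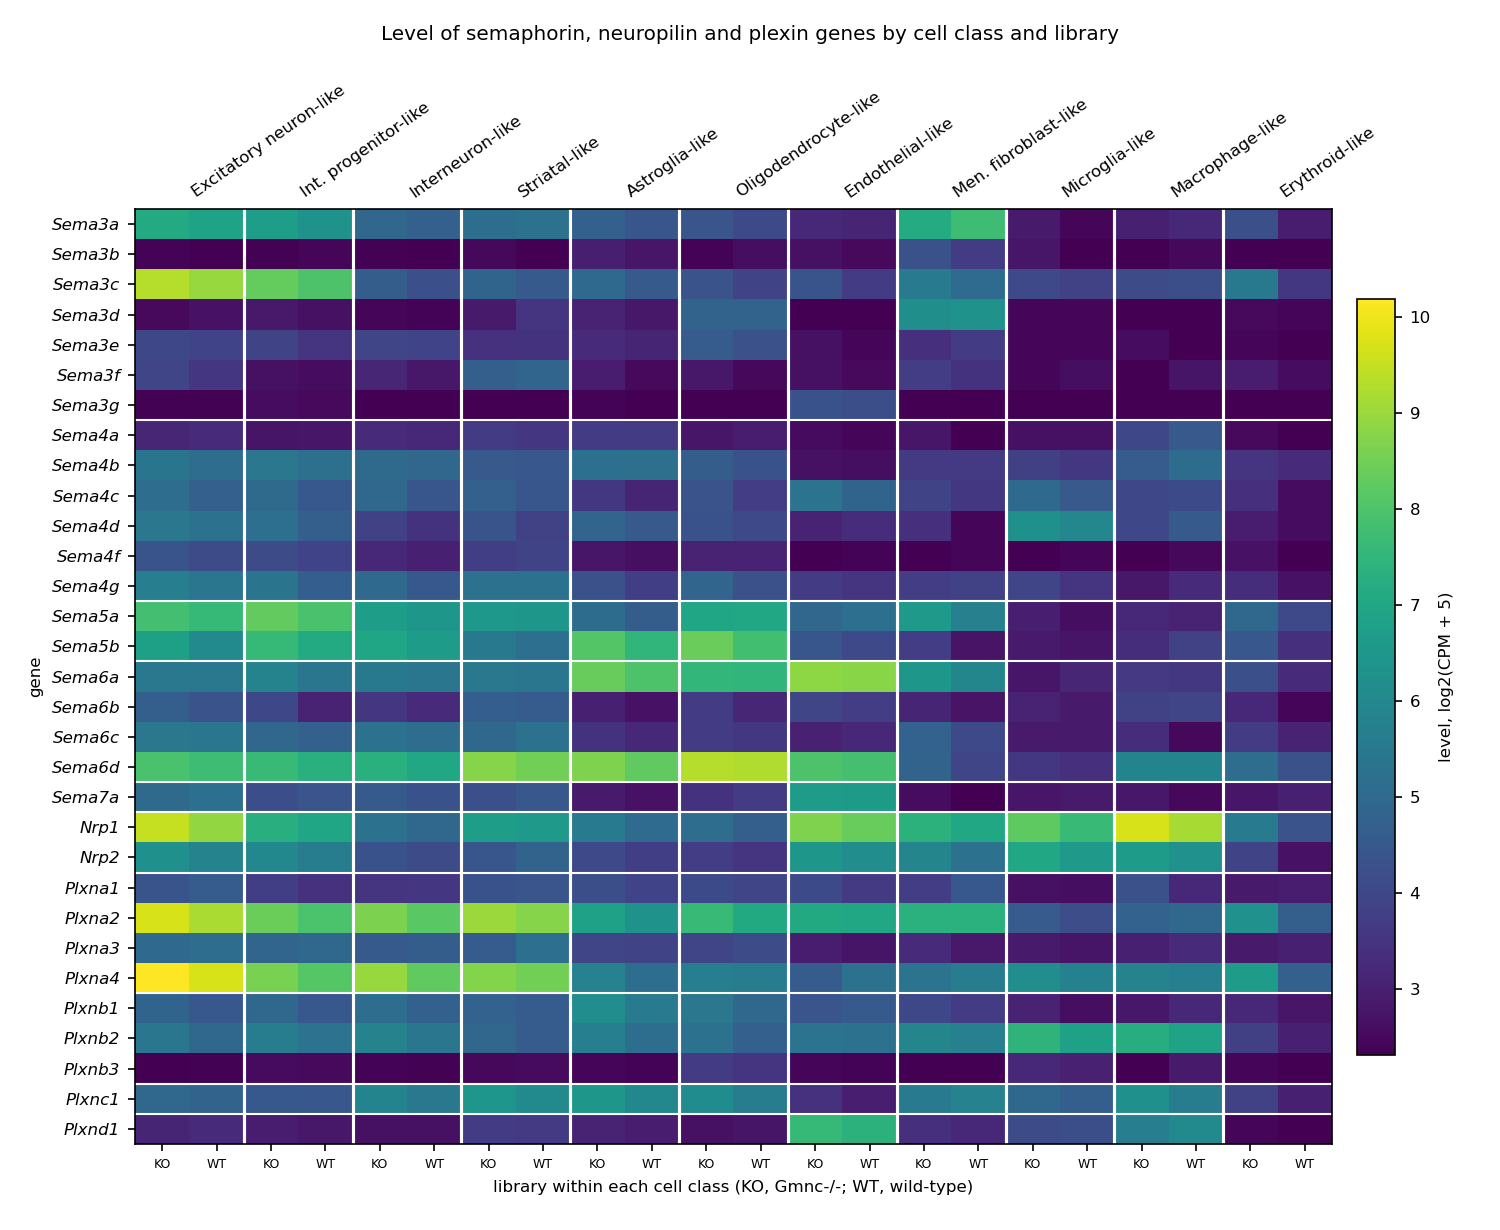
Level of the 31 protein-coding members (rows, by family) in 11 cell classes (column pairs, Gmnc-/- left of wild-type), as log2(CPM + 5). The pattern over classes is shared by both libraries, with Sema3c, Nrp1, Plxna2 and Plxna4 bright in excitatory neuron-like cells and Sema5b in glia. Sema6d is bright in glia and in striatal-like cells, and Sema6a, Sema7a and Plxnd1 are bright in endothelial-like cells.

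The class in which a member was highest was mostly the same in both libraries. Over 10 classes, leaving out erythroid-like cells, 27 of the 31 members had the same top class in both. Of the 16 members that reached 50 CPM in some class in both libraries, 14 had the same top class, and the exceptions were Plxnb2 and Plxnc1. Pearson's r of log2(CPM + 5) over the 10 classes, between the libraries, had a median of 0.985 and a lowest value of 0.92 among these 16, as a description of libraries that share their dissection and protocol. By class, Sema3c, Plxna2 and Plxna4 were highest in excitatory neuron-like cells, and Sema5b and Sema6d in the oligodendrocyte lineage. Sema6a, Sema7a and Plxnd1 peaked in endothelial-like cells, Sema3a and Sema3d in meningeal fibroblast-like cells, and Nrp1 in macrophage-like cells.

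Among the secreted ligands, Sema3c was mostly a transcript of the excitatory lineage. It stood at 629 CPM in Gmnc-/- and 502 CPM in wild-type excitatory neuron-like cells, and at 316 and 252 CPM in intermediate progenitor-like cells. Excitatory neuron-like cells held 80.1% of all Sema3c UMIs in the Gmnc-/- library and 76.8% in the wild-type library. In the 4 other neural classes the gene was at 15.2 to 27.1 CPM in Gmnc-/- cells, which is below the 40.1 CPM of Gmnc-/- erythroid-like cells and is read as background. In wild-type cells those 4 classes had 10.4 to 18.7 CPM, against 7.11 CPM in erythroid-like cells.

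Sema3a, a repellent of many axons, was found in excitatory neurons and in meninges. Its level was 135 CPM in Gmnc-/- and 112 CPM in wild-type excitatory neuron-like cells, and 100.1 and 78.3 CPM in intermediate progenitor-like cells. In meningeal fibroblast-like cells the order of the libraries was the other way round, with 138 CPM in Gmnc-/- cells and 212 CPM in wild-type cells. In the Gmnc-/- library this level and the excitatory one overlapped within their intervals. Sema3d was also found there, at 70.2 CPM in Gmnc-/- and 76.2 CPM in wild-type fibroblast-like cells. Outside the meninges Sema3d exceeded 10 CPM in both libraries only in the oligodendrocyte lineage, at 23.5 CPM in Gmnc-/- and 23.5 CPM in wild-type cells.

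The remaining class 3 genes were low and local. Sema3e, the ligand of Plxnd1, was highest in the oligodendrocyte lineage, at 19.4 CPM in Gmnc-/- and 14.5 CPM in wild-type cells. It overlapped the next class within the intervals in the wild-type library only. Sema3f, which acts through Nrp2, was highest in striatal-like cells, at 21.2 CPM in Gmnc-/- and 25 CPM in wild-type cells. Sema3g was at 14.6 CPM in Gmnc-/- and 13.5 CPM in wild-type endothelial-like cells, and no other class held more than 1.01 CPM in either library. Sema3b was highest in meningeal fibroblast-like cells, at 14.2 CPM in Gmnc-/- and 8.28 CPM in wild-type cells.

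The class 4 semaphorins, transmembrane ligands of the plexin-B receptors among others, were spread over classes at low levels. Sema4d, which is also an immune cell protein, was highest in microglia-like cells, with 71.9 CPM in Gmnc-/- and 57.9 CPM in wild-type cells. In excitatory neuron-like cells it stood at 38.3 CPM in Gmnc-/- and 33.7 CPM in wild-type cells. Sema4g was highest in excitatory neuron-like cells, at 46.3 CPM in Gmnc-/- and 37.6 CPM in wild-type cells, and Sema4c in endothelial-like cells, at 34.7 and 24.2 CPM in the same order. Neither stood clear of its next class, Sema4g in the wild-type library and Sema4c in both. Sema4b lay between 14.9 and 38.1 CPM in the 6 neural classes of both libraries. Sema4a stayed below 18 CPM and Sema4f below 16 CPM in all 10 classes.

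Sema5a and Sema5b, transmembrane proteins with thrombospondin repeats, had their peaks in different classes. Sema5a was highest in intermediate progenitor-like cells, at 311 CPM in Gmnc-/- and 238 CPM in wild-type cells, followed by excitatory neuron-like cells at 225 and 188 CPM. Sema5b was highest in the oligodendrocyte lineage, at 330 CPM in Gmnc-/- and 219 CPM in wild-type cells, followed by astroglia-like cells at 270 and 178 CPM. In neither library did the intervals of these leading 2 classes overlap for either gene.

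Sema6d was detected well above erythroid-like cells in all 6 neural classes. It was at 633 CPM in Gmnc-/- and 602 CPM in wild-type oligodendrocyte lineage-like cells, 433 and 363 CPM in striatal-like cells, and 405 and 307 CPM in astroglia-like cells. Interneuron-like cells were the lowest of the 6, at 155 CPM in Gmnc-/- and 125 CPM in wild-type cells, against 30.3 and 14.2 CPM in erythroid-like cells. Sema6a, by contrast, was highest by class in endothelial-like and glial cells, although an interneuron-like cluster described below was also high. By class, Sema6a reached 457 CPM in Gmnc-/- and 441 CPM in wild-type endothelial-like cells, 328 and 253 CPM in astroglia-like cells, and 179 and 176 CPM in the oligodendrocyte lineage. The 4 neuronal and progenitor classes held 39.1 to 52 CPM of Sema6a in Gmnc-/- cells and 37.3 to 39.5 CPM in wild-type cells.

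Sema7a, the anchored member, was at 94.9 CPM in Gmnc-/- and 92.9 CPM in wild-type endothelial-like cells. Among neurons it was highest in excitatory neuron-like cells, at 27.7 CPM in Gmnc-/- and 31.5 CPM in wild-type cells.

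Of the receptors, Nrp1, which also binds VEGF in vessels, had a broad pattern with the same order of all 10 classes in both libraries. Macrophage-like cells led with 838 CPM in Gmnc-/- and 570 CPM in wild-type cells. Excitatory neuron-like cells followed with 721 and 476 CPM, then endothelial-like cells with 402 and 327 CPM and microglia-like cells with 301 and 197 CPM. The interneuron-like and oligodendrocyte lineage-like levels in Gmnc-/- cells, 34.4 and 30.5 CPM, did not exceed the 41.3 CPM of erythroid-like cells. Nrp2 was at 126 CPM in Gmnc-/- and 89.2 CPM in wild-type microglia-like cells, and at 94.4 and 73.9 CPM in macrophage-like cells, which overlapped within the intervals in both libraries. Its highest neural level was 72.2 CPM in Gmnc-/- and 53 CPM in wild-type excitatory neuron-like cells.

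**Figure D2:**
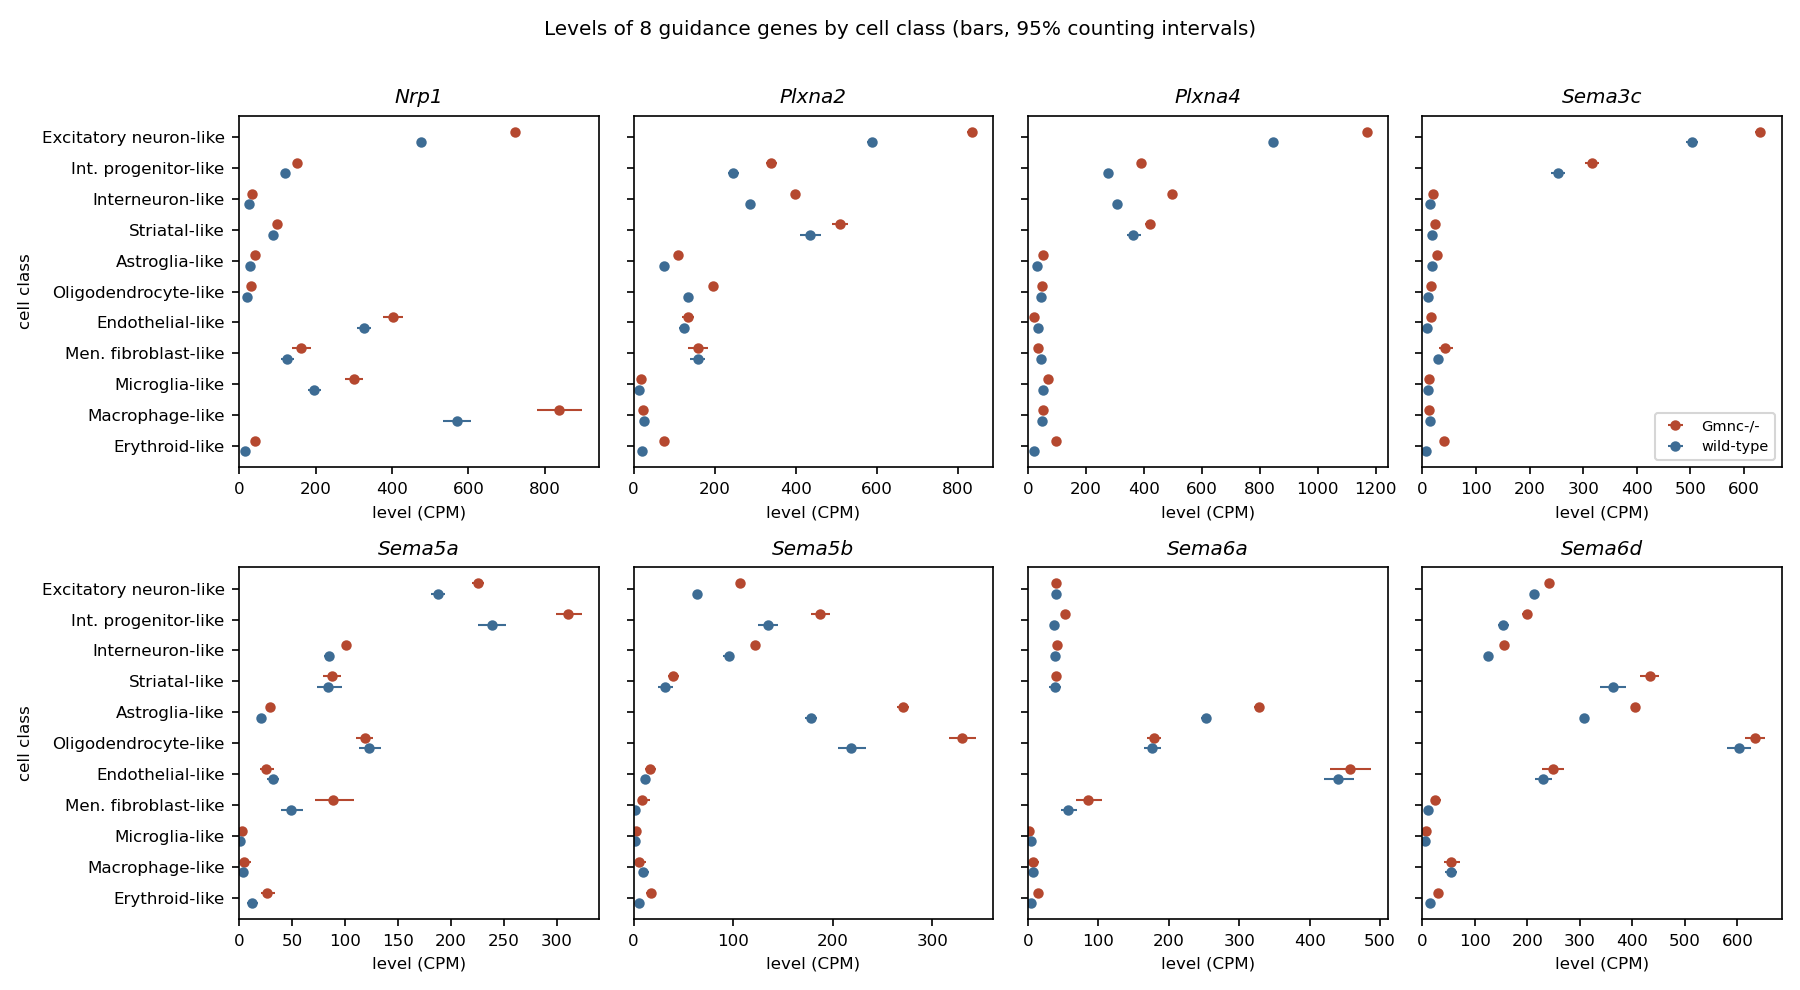
Level in CPM (x axis) of 8 members in 11 cell classes (rows), with 1 point per library (red, Gmnc-/-; blue, wild-type) and 95% counting intervals. Plxna4 and Sema3c are high in excitatory neuron-like cells at 1169 and 629 CPM in the Gmnc-/- library, whereas Sema6a leads in endothelial-like cells at 457 CPM.

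Plxna4 and Plxna2, of the plexin-A family, carried most of the plexin UMIs of neurons. Plxna4 was at 1169 CPM in Gmnc-/- and 846 CPM in wild-type excitatory neuron-like cells, and at 496 and 307 CPM in interneuron-like cells. Plxna2 was at 833 CPM in Gmnc-/- and 586 CPM in wild-type excitatory neuron-like cells, and at 508 and 435 CPM in striatal-like cells. The 4 plexin-A genes summed to 2046 CPM in Gmnc-/- and 1482 CPM in wild-type excitatory neuron-like cells, against 61.9 and 44.5 CPM for the 3 plexin-B genes. Plxna1 stayed between 5.93 and 19.7 CPM and Plxna3 between 10.2 and 31.9 CPM in the 6 neural classes of both libraries.

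The other plexins had their peaks outside excitatory neurons. Plxnb1 was highest in astroglia-like cells, at 67 CPM in Gmnc-/- and 43.4 CPM in wild-type cells. Plxnb2 was highest in microglia-like cells of the Gmnc-/- library, at 168 CPM, and in macrophage-like cells of the wild-type library, at 111 CPM, and those 2 classes overlapped within their intervals in both libraries. Plxnb3 was low throughout and highest in the oligodendrocyte lineage, at 7.98 CPM in Gmnc-/- and 6.33 CPM in wild-type cells. Microglia-like cells followed at 4.31 and 3.20 CPM in the same order, and overlapped the lineage within the intervals in both libraries. Plxnc1, a receptor of Sema7a, was at 85.3 CPM in Gmnc-/- and 59.1 CPM in wild-type astroglia-like cells and at 83.1 and 61.4 CPM in striatal-like cells. Plxnd1 was at 187 CPM in Gmnc-/- and 161 CPM in wild-type endothelial-like cells, which held 51.1% and 60.0% of its UMIs.

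Classes held too few cells for a level in 3 cases, where UMIs alone are given. Cajal-Retzius-like cells numbered 1 in the Gmnc-/- library and 36 in the wild-type library. The wild-type cells held 352743 UMIs, among them 100 of Sema6a, 58 of Plxna4, 31 of Plxnd1, 18 of Sema4g and 16 of Sema6d, and none of Sema3a, Sema3d or Sema7a. Mural-like cells, 48 in Gmnc-/- and 46 in wild-type, held 118 and 156 UMIs of Sema6d and 61 and 66 of Nrp1. Cluster 31, which had marker genes of both ependyma and choroid plexus, held 39 Gmnc-/- and 165 wild-type cells. Its Sema6d UMIs were 124 of 307038 in Gmnc-/- cells and 462 of 2952623 in wild-type cells.

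The members also varied within classes. Excitatory neuron-like cells fell into 7 clusters, each listed by its leading genes. Cluster 1 was led by Nos1, Unc5d and Tbr1, cluster 3 by Hs6st2 and Clstn2, cluster 5 by Neurod2 and Pou3f1, and cluster 23 by Tfap2d and Nell1. Clusters 16, 19 and 28 scored highest among the 7 for the hippocampal, layer 5 and layer 6 corticothalamic marker lists. Nrp1 was highest in cluster 16, at 1685 CPM in Gmnc-/- and 1401 CPM in wild-type cells, and in cluster 3, at 1096 and 928 CPM. It was lowest in cluster 28, at 152 CPM in Gmnc-/- and 155 CPM in wild-type cells.

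Sema3c followed the same leading cluster but not the same order below it. It was at 1214 CPM in Gmnc-/- and 1168 CPM in wild-type cells of cluster 16, and at 48.7 and 40.2 CPM in cluster 19. Nrp2 was found in clusters 16 and 23, at 281 and 190 CPM in Gmnc-/- cells and at 164 and 201 CPM in wild-type cells, and stayed at or below 60.1 CPM in the other 5 clusters of both libraries. Plxna4 was highest in cluster 23, at 2098 CPM in Gmnc-/- and 1702 CPM in wild-type cells, and lowest in cluster 28, at 321 and 361 CPM. Sema6d had its peak in cluster 16, at 632 CPM in Gmnc-/- and 475 CPM in wild-type cells.

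**Figure D3:**
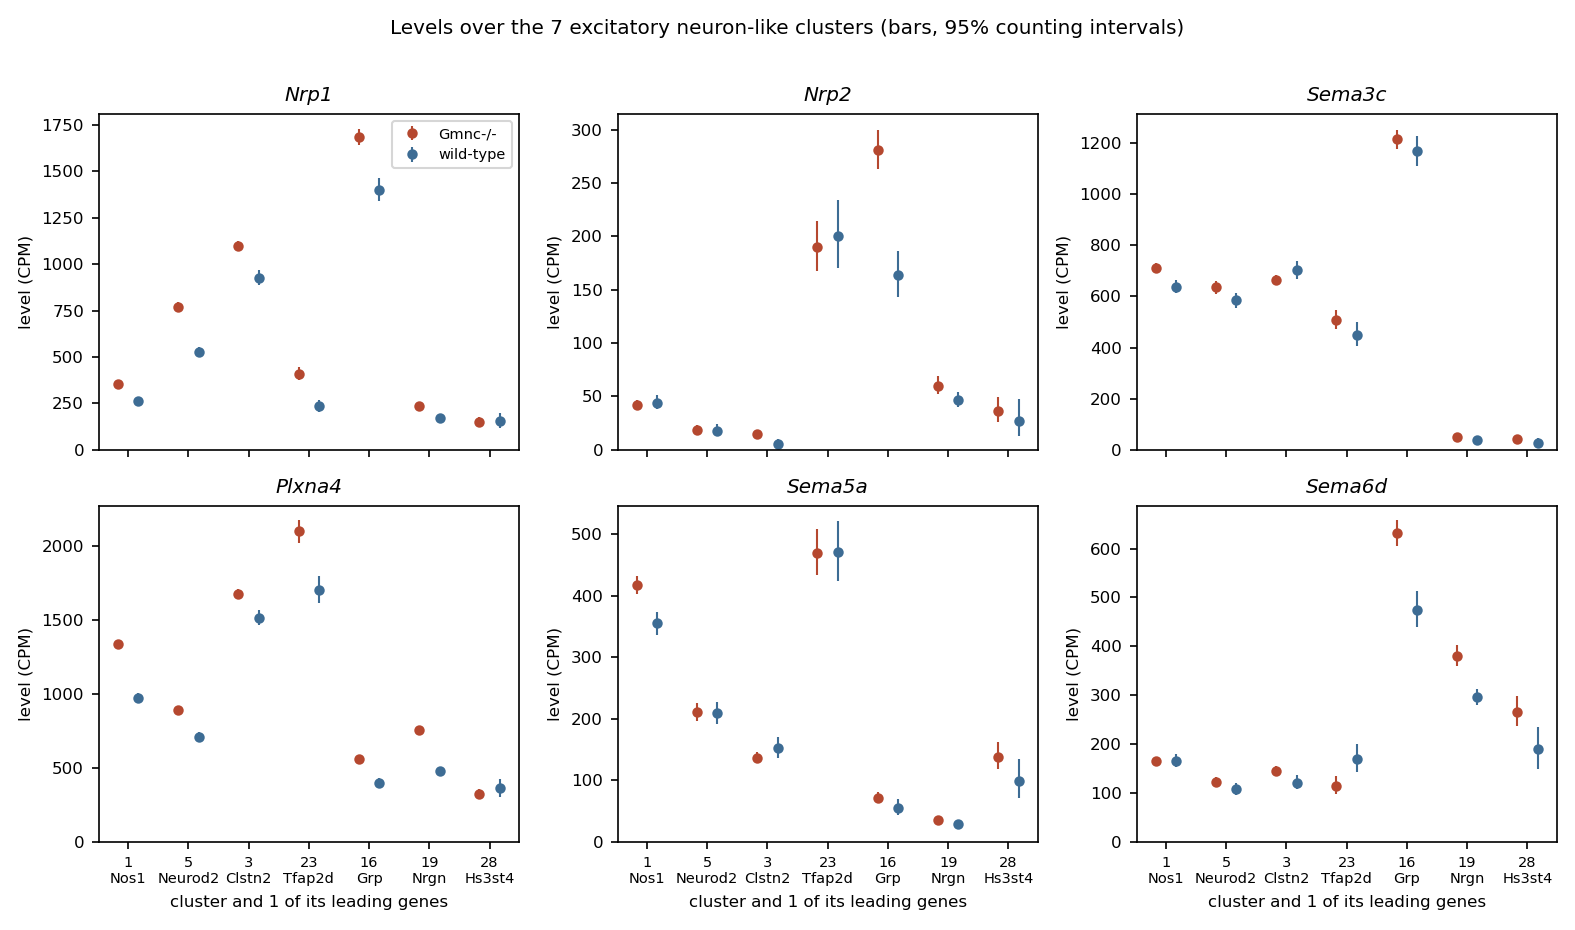
Level in CPM (y axis) of 6 members in the 7 excitatory neuron-like clusters (x axis, with 1 leading gene each), for Gmnc-/- (red, left) and wild-type (blue, right) cells, with 95% counting intervals. Nrp1, Sema3c and Sema6d peak in cluster 16, whereas Plxna4 and Sema5a are high in cluster 23.

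In glia the clusters differed as much. Cluster 10, led by Pdgfra and Sox10 as in oligodendrocyte precursors, had 1031 CPM of Sema6d in Gmnc-/- and 906 CPM in wild-type cells. Cluster 14, led by Egfr and Olig1 as in earlier progenitors, had 267 and 261 CPM. Sema5b had the opposite order, with 242 CPM in Gmnc-/- and 202 CPM in wild-type cells of cluster 10, and 411 and 237 CPM in cluster 14. Among astroglia-like cells, cluster 6, led by Aqp4, the water channel of mature astrocytes, had the most Sema6d, at 719 CPM in Gmnc-/- and 486 CPM in wild-type cells. The same cluster had the most Sema6a, at 577 CPM in Gmnc-/- and 417 CPM in wild-type cells.

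Among striatal-like cells, Sema6d was at 619 CPM in Gmnc-/- and 531 CPM in wild-type cells of cluster 12, which Drd2 marks, and at 807 and 692 CPM in cluster 24, which Isl1 and Tac1 mark. In cluster 15, led by Six3, it was at 74.1 CPM in Gmnc-/- and 55.2 CPM in wild-type cells. Among interneuron-like cells, Sema6a was highest in cluster 22, led by Lhx6 and Sst, at 207 CPM in Gmnc-/- and 238 CPM in wild-type cells. Plxna4 ranged there from 185 CPM in Gmnc-/- and 113 CPM in wild-type cells of the dividing cluster 4 to 970 and 730 CPM in cluster 2.

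The comparison of genotypes asked whether the receptors and ligands of guidance differed in cells of brains that lack Gmnc. A member was taken as measured in a class with a mean of at least 10 CPM over the libraries and 20 UMIs in all, and the log2 ratio was formed after adding 5 CPM to both levels. Of the 31 members, 26 were measured in at least 1 of the 6 neural classes, in 126 combinations of member and class. Those never measured were Plxnb3, Plxnd1, Sema3b, Sema3g and Sema4a. Members were mostly somewhat higher in Gmnc-/- cells, in 108 of the 126 combinations, or 85.7%. Of all measured genes and classes together, 62.8% were higher in Gmnc-/- cells. In erythroid-like cells, the measure of free RNA, 7 members were measured and all 7 were higher in Gmnc-/- cells, with a median log2 ratio of 1.19 against 0.69 for all measured genes. Erythroid markers in excitatory neuron-like cells summed to 1359 CPM in Gmnc-/- and 656 CPM in wild-type cells, and in striatal-like cells to 1707 and 825 CPM. They were also higher in Gmnc-/- intermediate progenitor-like and interneuron-like cells. In astroglia-like cells they summed to 616 CPM in Gmnc-/- and 1064 CPM in wild-type cells, and in the oligodendrocyte lineage to 884 and 1514 CPM.

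Past 1.5-fold, 7 combinations were higher and 1 was lower in Gmnc-/- cells. The count of 7 depends on the processing. It was 2 with median-of-ratios scaling, 17 with a stricter cell filter, 26 with called doublets kept and 27 in cells with Y-linked UMIs and no Xist. The share of all measured genes past 1.5-fold under these settings is not given here, so these counts are no result about the members. In excitatory neuron-like cells 2 of 24 measured members were higher and 0 lower, where 2.88% of all 9170 measured genes were higher and 3.16% lower. In intermediate progenitor-like cells 1 of 21 was higher and 0 lower, against 6.06% and 3.55% of all measured genes. In astroglia-like cells 2 of 18 were higher and 0 lower, against 4.54% and 3.26%. In interneuron-like cells 1 of 20 was higher and 0 lower, against 2.62% and 3.25%. In striatal-like cells 0 of 23 were higher and 1 lower, against 3.65% and 2.77%. In the oligodendrocyte lineage 1 of 20 was higher and 0 lower, against 5.23% and 2.82%. Each class had 0 to 2 such members, too few to set apart from the background.

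For the members, the median log2 ratio, Gmnc-/- over wild-type, was 0.25 in the excitatory class, where that of all measured genes was 0.07. It was 0.34 against 0.14 in intermediate progenitor-like, 0.44 against 0.16 in astroglia-like and 0.32 against 0.09 in interneuron-like cells. In the oligodendrocyte lineage it was 0.34 against 0.12, and in striatal-like cells 0.08 against 0.05. Rescaled by the median of ratios, which shifted log2 ratios by -0.04 to -0.18 by class, the 2 combinations higher past 1.5-fold were Plxna4 in interneuron-like cells, at a log2 ratio of 0.61, and Sema5b in excitatory neuron-like cells, at 0.65.

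**Figure D4:**
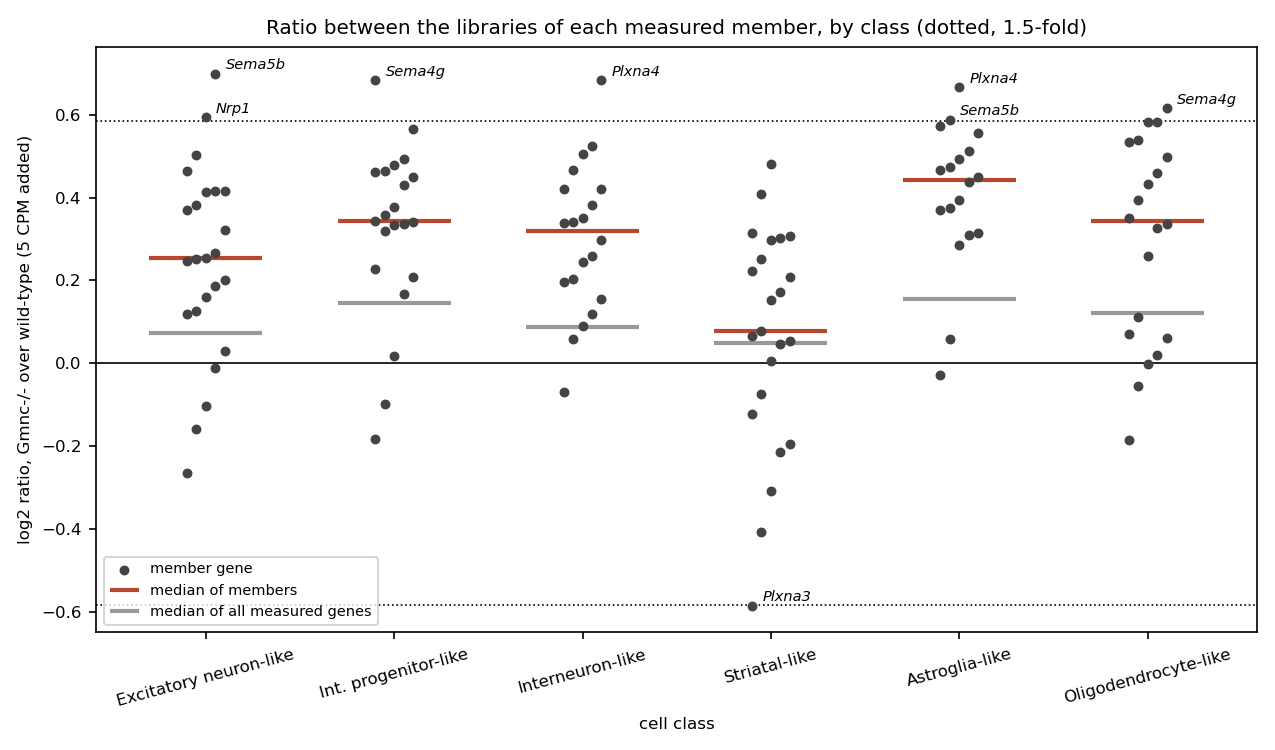
Log2 ratio of each measured member, Gmnc-/- over wild-type (y axis), in the 6 neural classes (x axis), with the members' median in red and the median of all measured genes in grey. Named points are those past 1.5-fold (dotted lines), and most points lie between 0 and 0.58.

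Sema5b was higher in Gmnc-/- cells of every neural class. In excitatory neuron-like cells it stood at 107 CPM (102.9 to 110.8) in Gmnc-/- and 63.8 CPM (59.9 to 67.9) in wild-type cells, a ratio of 1.67 (1.56 to 1.80). In astroglia-like cells the ratio was 1.52 (1.46 to 1.58), and in the oligodendrocyte lineage 1.51 (1.40 to 1.63). Intermediate progenitor-like cells had 1.39 (1.27 to 1.52), interneuron-like cells 1.28 (1.20 to 1.37) and striatal-like cells 1.27 (0.972 to 1.67), an interval that holds 1. Sema5b was higher in Gmnc-/- cells in all 24 clusters, of the 25 neural ones, in which it was measured. Plxna2 was also higher in all 25 clusters, at ratios of 1.17 to 1.47 in the 6 classes, and passed 1.5-fold in none of these classes. The clusters come from the same 2 libraries and are not replicates, and the share of all genes higher in every cluster is not given here.

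Nrp1 in excitatory neuron-like cells had a ratio of 1.51 (1.47 to 1.56), from 19207 UMIs in Gmnc-/- and 7442 in wild-type cells. It was higher in Gmnc-/- cells in 6 of the 7 excitatory clusters, at cluster ratios of 0.98 to 1.75. The mix of clusters differed between the libraries. Cluster 3, rich in Nrp1, held 1515 of the 5718 Gmnc-/- and 495 of the 2471 wild-type cells of the class, and cluster 19, poor in Nrp1, held 418 and 327. With the 7 clusters weighted equally, an alternative chosen after seeing the data, the log2 ratio was 0.35 instead of 0.59. The pools also differed in sex. Cells with Xist and no Y-linked UMI numbered 9514 in Gmnc-/- and 7088 in wild-type, and those with Y-linked UMIs and no Xist 5350 and 1585. Within the first kind of cells the Nrp1 log2 ratio was 0.64, and within the second 0.29.

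Plxna4 in interneuron-like cells was at 496 CPM in Gmnc-/- and 307 CPM in wild-type cells, a ratio of 1.62 (1.56 to 1.68), and higher in 6 of 6 clusters at ratios of 1.14 to 1.63. Weighting those clusters equally gave a log2 ratio of 0.35 instead of 0.68. In astroglia-like cells Plxna4 had a ratio of 1.68 (1.53 to 1.85) at 51.5 CPM in Gmnc-/- and 30.6 CPM in wild-type cells. Erythroid-like cells held 95.5 CPM of Plxna4 in the Gmnc-/- library and 21.8 CPM in the wild-type library, so the astroglia-like level is at or below background in the Gmnc-/- library and is not read as a difference. The part of free RNA in the other ratios was not tested. Of the 126 measured combinations, 8 were at or below the erythroid-like level in the Gmnc-/- library and 0 in the wild-type library, and those 8 were Sema3c in 4 classes and Nrp1 and Plxna4 in 2 each. Markers of the erythroid lineage make up most UMIs of those cells, at 605503 CPM in Gmnc-/- and 689088 CPM in wild-type cells, so the free RNA they show is diluted.

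Sema4g, a transmembrane semaphorin, had a ratio of 1.75 (1.40 to 2.21) in intermediate progenitor-like cells, from 287 UMIs in Gmnc-/- and 108 in wild-type cells. In the oligodendrocyte lineage its ratio was 1.72 (1.28 to 2.34), from 169 and 63 UMIs in the same order. Plxna3 was the member lower past 1.5-fold, in striatal-like cells, at 19.6 CPM in Gmnc-/- and 31.9 CPM in wild-type cells, a ratio of 0.614 (0.452 to 0.837). It rests on 100 and 78 UMIs, and the call was lost with the clusters weighted equally, with cells averaged in place of summed, at a clustering resolution of 2 and with a looser cell filter. Plxna3 was higher in Gmnc-/- cells in 1 of the 6 classes and in 4 of the 21 clusters in which it was measured. The gene lies on the X chromosome and the pools differed in sex, but its values split by Xist and Y-linked UMIs are not given here.

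Sema6d, Sema6a and Sema3c passed 1.5-fold in none of the 6 neural classes, and their ratios differed from class to class. Sema6d had ratios of 1.32 (1.28 to 1.36) in astroglia-like, 1.29 (1.18 to 1.41) in intermediate progenitor-like, 1.24 (1.17 to 1.32) in interneuron-like and 1.19 (1.10 to 1.29) in striatal-like cells. It had 1.14 (1.09 to 1.19) in excitatory neuron-like cells and 1.05 in the oligodendrocyte lineage, where 4366 UMIs were counted in Gmnc-/- and 2663 in wild-type cells. Sema6a had 1.39 (1.17 to 1.66) in intermediate progenitor-like cells and 1.30 (1.25 to 1.34) in astroglia-like cells, where it was higher in 4 of 4 clusters. Its intervals held 1 in the other 4 neural classes, with 0.99 (0.895 to 1.10) in excitatory neuron-like cells, and in endothelial-like cells, with 1.04 (0.958 to 1.12). Sema3c had 1.25 (1.22 to 1.29) in excitatory neuron-like cells and was higher in Gmnc-/- cells of 6 of the 7 clusters, at cluster ratios of 0.946 to 1.63.

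The antisense rows lie inside Plxna4 on the opposite strand. Plxna4 spans chr6:32144268-32588192 on the minus strand (mm10), and Plxna4os3 spans chr6:32303829-32316614 on the plus strand. Plxna4os3 in excitatory neuron-like cells was at 74 CPM in Gmnc-/- and 35.8 CPM in wild-type cells, a ratio of 2.06 (1.88 to 2.27), and Plxna4 had 1.38 (1.35 to 1.41). In interneuron-like cells the ratio of Plxna4os3 was 1.90 (1.59 to 2.28). Plxna4os1 and Plxna4os2 stayed below 20 CPM in every class. The strand setting of the counting is not stated in the labels, and without it reads of the locus cannot be told apart.

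The log2 ratio also moved with the span of the gene, from start to end with introns. Over all genes measured in excitatory neuron-like cells, its median was -0.13 for spans below 10 kb, 0.07 from 10 to 50 kb, 0.15 from 50 to 100 kb and 0.17 from 100 to 200 kb. In astroglia-like cells the medians ran from -0.16 below 10 kb to 0.32 from 100 to 200 kb. The 31 members, measured or not, had a median span of 40.2 kb, from 9.71 kb for Sema4c to 578 kb for Sema6d. Over all genes measured in excitatory neuron-like cells the median span was 30.9 kb. Of the members measured in that class, 1 spanned below 10 kb, 10 spanned 10 to 50 kb and 0 spanned 50 to 100 kb. Another 8 spanned 100 to 200 kb and 5 spanned more. All measured genes numbered 1792, 4090, 1519, 962 and 793 in the same ranges. In that class the members' median log2 ratio was 0.37 for spans of 100 to 200 kb and 0.25 above 200 kb, where all genes had 0.17 and 0.12. In intermediate progenitor-like cells it was 0.39 and 0.37 against 0.30 and 0.31, and in astroglia-like cells 0.46 and 0.42 against 0.32 and 0.32. Interneuron-like cells had 0.34 and 0.24 against 0.20 and 0.21, and striatal-like cells 0.26 and 0.13 against 0.14 and 0.12. In the oligodendrocyte lineage the members had 0.43 and 0.07 against 0.25 and 0.18. From 10 to 50 kb the members had 0.22 against 0.07 in excitatory neuron-like and 0.22 against 0.12 in intermediate progenitor-like cells. They had 0.39 against 0.12 in astroglia-like, 0.26 against 0.07 in interneuron-like and 0.40 against 0.12 in oligodendrocyte lineage-like cells. In striatal-like cells the order was reversed, at -0.03 against 0.04. The part of span, and of the Malat1 and mitochondrial differences between the libraries, in the members' ratios was not tested.

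**Figure D5:**
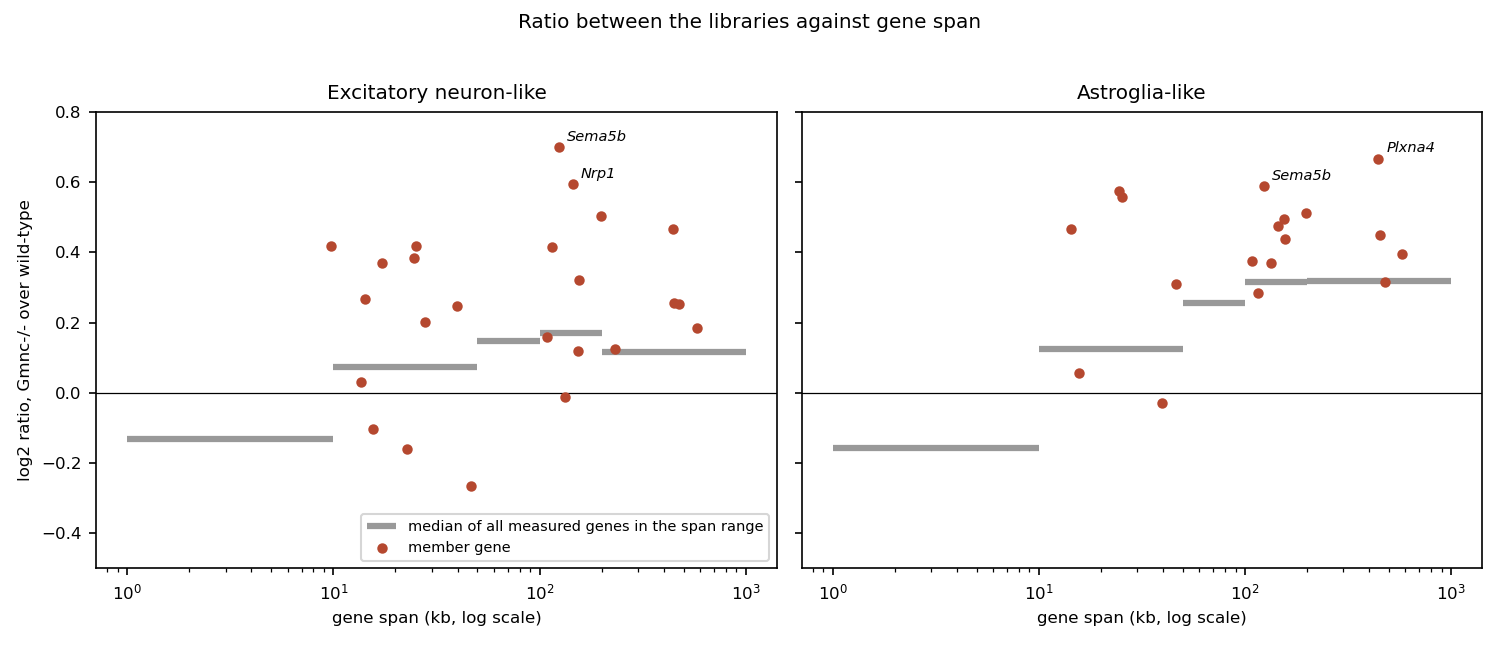
Log2 ratio, Gmnc-/- over wild-type (y axis), against gene span (x axis, log scale) for measured members (red points) in excitatory neuron-like and astroglia-like cells. Grey bars give the median of all measured genes in each span range (the first and last ranges are open and are drawn from 1 kb and to 1000 kb), and these climb from -0.13 and -0.16 below 10 kb.

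The co-receptors and cytoplasmic partners of semaphorin signalling, 48 genes, were described beside the members. Of these, 34 were measured in excitatory neuron-like cells, with a median log2 ratio of 0.06 against 0.07 for all genes, and in astroglia-like cells 36, with 0.28 against 0.16. Past 1.5-fold, 2 of 34 partners were higher in excitatory neuron-like cells, 3 of 35 in intermediate progenitor-like, 2 of 36 in astroglia-like, 2 of 35 in interneuron-like and 2 of 33 in striatal-like cells, and 3 of 34 in the oligodendrocyte lineage. The shares of all measured genes, in that order of classes, were 2.88%, 6.06%, 4.54%, 2.62%, 3.65% and 5.23%. In each class 0 partners were lower, where 2.77% to 3.55% of all measured genes were. Cntn2, the adhesion molecule TAG-1 of growing axons, was at 297 CPM in Gmnc-/- and 154 CPM in wild-type excitatory neuron-like cells, a ratio of 1.93 (1.84 to 2.02), and passed 1.5-fold in 5 classes. Dpysl5, a collapsin response mediator, was at 478 CPM in Gmnc-/- and 301 CPM in wild-type excitatory neuron-like cells, a ratio of 1.59 (1.54 to 1.65), and passed in 5 classes.

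Arhgef12, an exchange factor for small GTPases that binds plexin-B, had ratios of 1.66 (1.49 to 1.84) in intermediate progenitor-like, 1.53 (1.45 to 1.60) in astroglia-like and 1.63 (1.46 to 1.82) in oligodendrocyte lineage-like cells. Limk1, the kinase of cofilin, passed 1.5-fold in striatal-like cells, at 49.2 CPM in Gmnc-/- and 28.2 CPM in wild-type cells. Of the relatives of Dpysl5, Dpysl2 and Crmp1 were lower in Gmnc-/- excitatory neuron-like cells, short of 1.5-fold. Dpysl2 was at 383 CPM in Gmnc-/- and 519 CPM in wild-type cells and Crmp1 at 378 and 513 CPM. The values of Dpysl3 and Dpysl4, also on the partner list, are not given here. Cfl1, cofilin itself, was at 614 CPM in Gmnc-/- and 802 CPM in wild-type cells, also short of 1.5-fold. Of the 34 partners measured in that class, 20 were higher and 14 lower in Gmnc-/- cells.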

How the data were processed

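Single-cell RNA of 2 libraries, 1 per genotype, was analysed from the deposited count matrices. The authors made these counts per gene and cell barcode; the submitters' processing notes name Cell Ranger 7.1.0 and the build mm10. Whether intronic reads were counted is not given in the sources used here. The matrices held 27663 Gmnc-/- and 13033 wild-type barcodes, with 155482657 and 88905819 UMIs.

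Cells with at least 1000 UMIs and at most 10% mitochondrial UMIs were kept, and doublets called by Scrublet (scanpy 1.11.5), at an expected 0.8% per 1000 barcodes, were removed. Both libraries were clustered together without batch correction (2000 variable genes, 30 components, 15 neighbours, Leiden resolution 1). Members, 9 genes of the multiciliated programme, Xist, Tsix and Y-linked genes were left out of the clustering. Of 36 clusters, 2 stayed unnamed, and the score minimums for names were set after seeing the data. UMIs were summed per library and class. Intervals are exact Poisson (levels) or conditional binomial (ratios), at 95%. No model was fitted. Called means past 1.5-fold. The ratio and its interval were checked on simulated data. Gene spans are from GENCODE M21. Named genes were members with at least 50 CPM in both libraries in a neural or erythroid-like class (11 genes), members past 1.5-fold with an interval that leaves out 1, and others as examples of the range. The members and lists were chosen with earlier results of these data known.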

Additional observations from a re-analysis of the deposited data

Results flagged for a closer look

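For 5 members the ratio, Gmnc-/- over wild-type, lay below 1 in one class and above 1 in another, with both counting intervals leaving out 1. The share of all measured genes that meet the same rule is not given here, so the count of 5 is no result about the members. The difference between classes was not tested, and each class is 1 library per genotype. Sema3a had a ratio of 0.649 (0.532 to 0.788) in meningeal fibroblast-like cells and 1.20 (1.13 to 1.27) in excitatory neuron-like cells. Plxna4 had 0.577 (0.399 to 0.822) in endothelial-like cells, at 19.6 CPM in Gmnc-/- and 34 CPM in wild-type cells, and 1.38 (1.35 to 1.41) in excitatory neuron-like cells. The endothelial-like Plxna4 level in the Gmnc-/- library is below the 95.5 CPM of its erythroid-like cells, so it is read as background.

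Nrp2 had a ratio of 0.702 (0.497 to 0.998) in striatal-like cells and 1.36 (1.26 to 1.48) in excitatory neuron-like cells. Plxna1 had 0.789 (0.679 to 0.917) in excitatory neuron-like cells and 1.36 (1.14 to 1.62) in astroglia-like cells, at 13.4 CPM in Gmnc-/- and 9.87 CPM in wild-type astroglia-like cells. Sema7a had 0.879 (0.783 to 0.987) in excitatory neuron-like cells and 1.26 (1.06 to 1.51) in interneuron-like cells. Scaled by the median of ratios, the 5 lower ratios were 0.544 to 0.85 and the 5 higher ones 1.16 to 1.34.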

How the results depend on the processing

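The median log2 ratio of the members stayed above 0 in all 6 neural classes under every alternative run. In the main run the median of all measured genes was also above 0 in all 6, from 0.05 in striatal-like to 0.16 in astroglia-like cells. The members' median in striatal-like cells was 0.08. It was 0.345 in intermediate progenitor-like cells, 0.474 with called doublets kept and 0.208 with median-of-ratios scaling. In astroglia-like cells it was 0.444, and 0.531 with doublets kept, 0.295 with median-of-ratios scaling, 0.517 with 1 CPM added in place of 5 and 0.52 in cells with Y-linked UMIs and no Xist. The 7 combinations higher past 1.5-fold became 17 with the stricter cell filter, 26 with doublets kept, 11 at resolution 2, 2 with median-of-ratios scaling, 17 with 1 CPM added, 4 with a mean of at least 50 CPM, 11 in cells with Xist and no Y-linked UMI, and 27 in cells with Y-linked UMIs and no Xist. The 1 lower combination became 0 with the looser cell filter, at resolution 2, with cells averaged, with a mean of at least 50 CPM and with clusters weighted equally, and 2 with the stricter cell filter, with no filter on low values and in either set of cells split by Xist and Y-linked UMIs. For none of these alternatives is the count or median of all measured genes given here, so the changes are no result about the members. The causes were not tested. No paired analysis was possible because each genotype has 1 library and no test was made. Depth limits low members: 20 UMIs give a wide interval, and levels of a few CPM cannot be told from free RNA. For some members this limit is higher. Erythroid-like cells held 95.5 CPM of Plxna4 in Gmnc-/- and 21.8 CPM in wild-type, and 74.3 and 21.3 CPM of Plxna2.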

Other observations

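Both libraries also held UMIs of reporter sequences that are no mouse genes. Stop-Ai9 had 20774 UMIs in Gmnc-/- and 44735 in wild-type cells, Tomato had 1485 and 2511, and LacZ had 0 in both. The labels name no reporter allele, and the members' values by reporter were not analysed here.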
